A study of Mus musculus with 6 samples.

Results

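Cartilage and tendon are fates that mesenchymal cells can take in place of bone, and 10 genes that mark them were examined in bone marrow mesenchymal stromal cells (BMSCs) under osteogenic induction. They were Sox9, Sox5, Sox6, Acan, Col2a1, Col10a1 and Comp for cartilage and Scx, Tnmd and Mkx for tendon. All 10 were found by symbol among the 54532 genes of the deposited tables. Primary wild type mouse BMSCs, adherent marrow cells able to form osteoblasts, were cultured for 7 days in medium with dexamethasone, ascorbic acid and β-glycerophosphate. The 3 Ni cultures also received 0.1 μM nickel ions as NiCl2, and the 3 control cultures received vehicle. Both groups had β-glycerophosphate at 10 mM, ascorbic acid at 50 μg/mL and dexamethasone at 100 nM per the labels, and the methods of the study give dexamethasone at a lower concentration. The strain, age and sex of the donor mice, and whether cultures shared a donor, were not given in the sources used here. RNA from each culture was sequenced, and the comparison of Ni with control asks which transcripts differ with low-dose nickel during mineralization.

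In cartilage, SOX9 is the master transcription factor of chondrocytes, and SOX5 and SOX6 act with it on the genes of the matrix. That matrix is built from type II collagen and the large proteoglycan aggrecan, and type X collagen marks chondrocytes that have become hypertrophic. In tendon, the transcription factors scleraxis and mohawk drive the formation of collagen fibres, and tenomodulin is a membrane protein of mature tendon cells. Several of these genes, and many of their partners, are also transcribed by osteoblasts or by general stromal cells.

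Libraries held from 16101033 to 18642504 counts, where a count is a read assigned to a gene. Control replicate 3 stood apart from its group. Its mean distance (1 minus Pearson's r over log2 CPM, counts scaled to a common library size) was 0.022 to the other controls and 0.0131 to the Ni libraries. Its label was kept, and whether this culture or library had been exchanged with another was not tested. Ni replicate 2 lay closer to the controls, at 0.018, than Ni replicates 1 and 3, at 0.0232 and 0.0235. Its mean distance to the other Ni libraries was 0.0159. All 11 general stromal markers were counted, with a summed level of 4237 to 4677 CPM in controls and 4492 to 4813 CPM in Ni libraries. Macrophage transcripts were plentiful too: the 15 markers, none of them at 0, summed to 27940 to 33160 CPM in controls and 28000 to 28760 CPM in Ni libraries. Of these 15, 5 were lower in Ni at an unadjusted p under 0.05 in edgeR's quasi-likelihood test and 0 were higher. Of the 11 general stromal markers, 1 was lower and 2 were higher. Over all tested genes 5.83% were lower and 7.59% higher. Without control replicate 3, 6 general stromal markers were higher and 1 lower at an adjusted p under 0.05 in edgeR. Of the macrophage markers, 1 was higher and 5 were lower in that fit, against 8.69% higher and 6.49% lower of all genes. The part of macrophages in the results below was not tested. In bulk RNA a change in the number of cells of a type cannot be told apart from a change in RNA per cell.

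Of the 10 genes, 5 lay higher in every Ni library than in any control, namely Scx, Col10a1, Sox9, Comp and Col2a1, with fold changes between 1.42 and 2.11. Tnmd, Mkx and Sox5 overlapped between the groups, and Sox6 and Acan were counted too rarely to be tested. For comparison, 7.97% of the 14624 genes that passed the filter on low counts lay wholly higher in Ni, and 6.71% lay wholly lower. At an unadjusted p under 0.05 in edgeR's quasi-likelihood test, the same 5 genes were higher and 0 were lower, where 7.59% of all tested genes were higher and 5.83% lower. After Benjamini-Hochberg adjustment over all tested genes, 0 of the 8 passed 0.05, as did 0% of all genes, and the smallest adjusted p among the 8 was 0.222, for Col10a1. DESeq2's Wald test passed 2 of the 8, Col10a1 and Comp, both higher, against 1.46% higher and 0.328% lower of the 14337 genes to which it gave an adjusted p, and it gave none to Acan and Sox6. Each of the 8 was counted at least 122 times over the 6 libraries, and the median of their log2 fold changes was 0.63, beside -0.01 over all tested genes.

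The adjusted calls depended on control replicate 3. Without it, 5 of the 8 were higher and 1, Sox5, was lower at an adjusted p under 0.05 in edgeR, where 8.69% of all genes were higher and 6.49% lower. It was the highest control for 6 of the 8 tested genes, Mkx and Sox5 being the exceptions. Of the controls it also lay nearest to the Ni libraries, so leaving it out favours a difference between the groups. For that reason, p-values from fits without it, here and below, cannot decide whether a gene differs. With any other single library left out, 0 of the 8 passed.

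**Figure D1:**
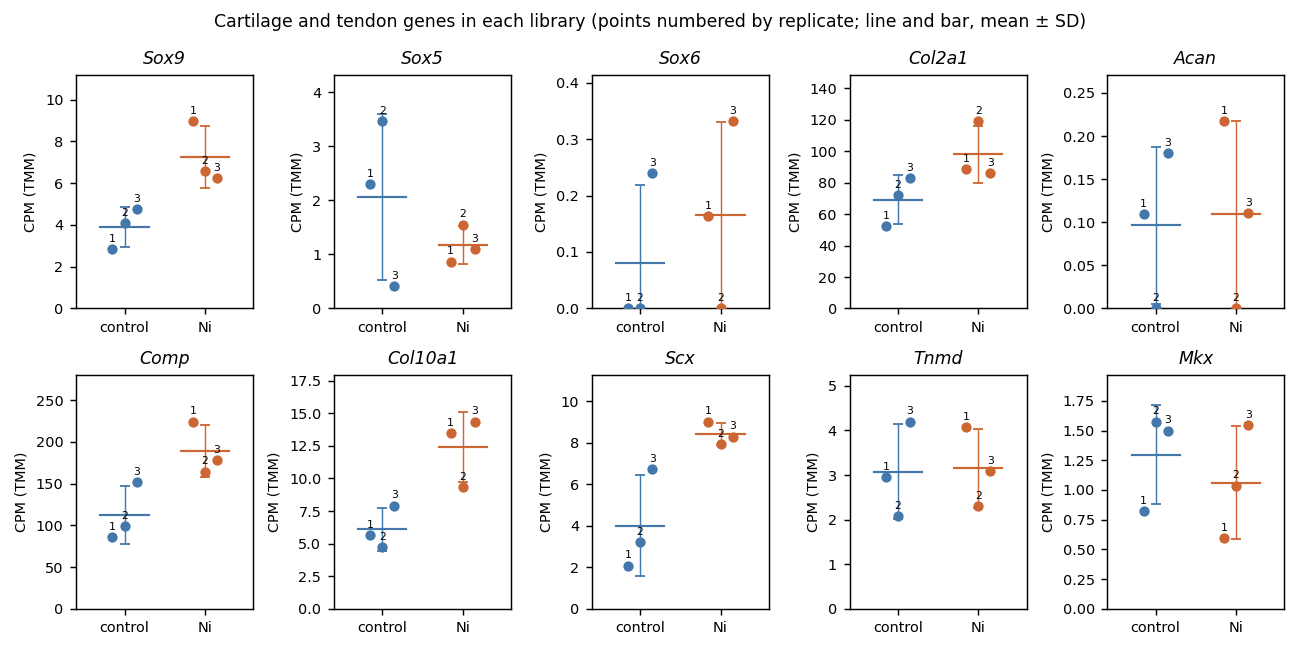
Level of each gene in CPM, with library sizes scaled by TMM, in the 3 control (blue) and 3 Ni (orange) libraries. Points are numbered by replicate, and the line and bar give the mean and SD. Every Ni point is above every control point for Sox9, Col2a1, Comp, Col10a1 and Scx, and control replicate 3 is the highest control in each of these panels.

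Of the transcription factor genes Sox9, Sox5 and Sox6, Sox9 (ENSMUSG00000000567) was the most abundant. It lies on chromosome 11 of GRCm38 from 112782224 to 112787760 and shares no exon base with another gene. It was counted 52, 65 and 79 times in control replicates 1 to 3, which is 2.84, 4.09 and 4.74 CPM. In Ni replicates 1 to 3 it was counted 165, 114 and 113 times, which is 8.96, 6.56 and 6.24 CPM. The groups did not overlap, and the gap between the highest control and the lowest Ni library was smaller than the spread within the Ni group. Controls averaged 3.89 ± 0.965 CPM (SD, n = 3), against 7.25 ± 1.48 CPM (SD, n = 3) with Ni. By edgeR, Sox9 differed by 0.90 on the log2 scale, with a standard error of 0.25 and an adjusted p of 0.273. For Sox9 and the other 4 genes without overlap, the exact two-sided permutation p was 0.1, the smallest that 3 libraries against 3 can give.

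Sox5 (ENSMUSG00000041540), which spans 143828425 to 144781977 on chromosome 6, went the other way in some libraries. It was counted 42, 55 and 7 times in the controls and 16, 27 and 20 times in the Ni libraries. Control replicates 1 and 2 were thus above every Ni library, and control replicate 3 was below all of them. Its log2 fold change of -0.81 was little larger than its standard error of 0.62 (adjusted p = 0.601 in edgeR). Without control replicate 3 it was -1.28 (adjusted p = 0.039 in edgeR), and without control replicate 2 it was -0.22. The antisense gene Sox5os1 covers 9.25% of the exon bases of Sox5 and was at 0 in all 6 libraries.

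Sox6 (ENSMUSG00000051910), on chromosome 7 from 115470872 to 116038796, was close to undetected. It was counted 0, 0 and 4 times in the controls and 3, 0 and 6 times in the Ni libraries. A count of 0 allows up to 3 counts, which for Sox6 in control replicate 1 is a level of up to 0.011 FPKM, a unit that scales counts by gene length and library size. Such limits cover counting error only. A difference between the groups was not detectable at this depth.

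Of the cartilage matrix genes, Col2a1 (ENSMUSG00000022483), which encodes type II collagen, was present in every library. It lies on chromosome 15 from 97975602 to 98004695. Its levels were 52.4, 72.1 and 83.2 CPM in controls and 88.7, 119 and 86.2 CPM in Ni libraries. The groups were separate by a narrow margin, since Ni replicate 3 was only just above control replicate 3. Its log2 fold change of 0.50 was the smallest of the 5, with a standard error of 0.18 (adjusted p = 0.334 in edgeR). Which of its 10 annotated transcripts gave the counts cannot be read from counts per gene.

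Acan (ENSMUSG00000030607), on chromosome 7 from 79053483 to 79115099, encodes aggrecan, the proteoglycan that fills the type II collagen network of cartilage. It was counted 2, 0 and 3 times in controls and 4, 0 and 2 times in Ni libraries. No more than 4 counts were found in any library, while Col2a1 had at least 958. A level of up to 0.0251 FPKM is compatible with the 0 of control replicate 2.

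Comp (ENSMUSG00000031849), cartilage oligomeric matrix protein, is made in both cartilage and tendon and was the most abundant of the 10 genes. It lies on chromosome 8 from 70373558 to 70382066. It stood at 86.3, 99.3 and 151 CPM in controls and 224, 164 and 179 CPM in Ni libraries. Control replicate 3 came within reach of Ni replicate 2, while the other controls were well below. Controls averaged 112 ± 34.4 CPM (SD, n = 3) and Ni cultures 189 ± 31.3 CPM (SD, n = 3). Comp had a log2 fold change of 0.75 with a standard error of 0.21, and its adjusted p was 0.293 in edgeR and 0.0159 in DESeq2.

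Col10a1 (ENSMUSG00000039462), the type X collagen of hypertrophic chondrocytes, lies on chromosome 10 from 34389981 to 34397085. It was measured at 5.63, 4.72 and 7.92 CPM in controls and 13.5, 9.32 and 14.4 CPM in Ni libraries. Ni replicates 1 and 3 were close together, and Ni replicate 2 lay nearer the controls. The control mean was 6.09 ± 1.65 CPM (SD, n = 3) and the Ni mean 12.4 ± 2.69 CPM (SD, n = 3). This is a log2 fold change of 1.02 with a standard error of 0.23, and the adjusted p was 0.222 in edgeR and 0.0107 in DESeq2. The gene lies inside Nt5dc1, a gene on the opposite strand that overlaps 0.575% of the exon bases of Col10a1. Nt5dc1 was counted 244, 193 and 269 times in controls and 234, 172 and 275 times in Ni libraries.

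The stretches before the start sites of Col10a1 and Acan are shown because these cartilage matrix genes differed so much in detection. Each has the 250 bases that precede the start site in RefSeq (build GRCm38.p6, plus strand), at chr10:34389731-34389980 and chr7:79052976-79053225. Capitals mark matches, on either strand, to 4 short motifs: AACAAT for SOX factors, TGTGGT for RUNX factors, CANNTG for E-box factors such as scleraxis, and the TATA box TATAAA.
Col10a1: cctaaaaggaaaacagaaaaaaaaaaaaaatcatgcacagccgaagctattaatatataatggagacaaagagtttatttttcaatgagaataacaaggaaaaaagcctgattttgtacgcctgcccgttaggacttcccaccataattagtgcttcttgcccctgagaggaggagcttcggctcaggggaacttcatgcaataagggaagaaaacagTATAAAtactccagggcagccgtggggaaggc
Acan: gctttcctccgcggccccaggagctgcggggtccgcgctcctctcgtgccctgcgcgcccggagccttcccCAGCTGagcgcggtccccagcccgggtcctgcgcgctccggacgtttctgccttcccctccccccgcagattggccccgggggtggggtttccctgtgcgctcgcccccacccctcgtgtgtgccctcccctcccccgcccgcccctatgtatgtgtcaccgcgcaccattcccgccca
The Col10a1 stretch held 1 TATA box, which began 32 bases before the start site, and no other match. The Acan stretch held 1 E-box, 179 bases before the start site, and no other match. Of 32851 RefSeq stretches of this length, 12.4% held TATAAA, 66.2% CANNTG, 14.0% TGTGGT and 9.42% AACAAT. RefSeq stretches were used for 5 of the 10 genes, with 10 stretches in all because Sox6 has several start sites. Any stretch of Mkx was left out beforehand, so its motifs were not examined. Those of Sox5 and Tnmd held none of the motifs. Every Sox6 stretch held at least 1 E-box, and some also held SOX, RUNX or TATA matches. Whether any motif bears on detection was not tested.

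Of Scx, Tnmd and Mkx, the gene that differed most between the groups was Scx (ENSMUSG00000034161), which encodes scleraxis. It lies on chromosome 15 from 76457452 to 76459458. Its levels were 2.08, 3.21 and 6.72 CPM in controls and 9.01, 7.94 and 8.29 CPM in Ni libraries. The Ni libraries were close to one another, while the controls spread over a wider range and control replicate 3 came near the Ni group. Scx averaged 4.00 ± 2.42 CPM (SD, n = 3) without and 8.41 ± 0.545 CPM (SD, n = 3) with Ni. On the log2 scale the difference was 1.08, with a standard error of 0.36 (adjusted p = 0.312 in edgeR). Without control replicate 3 it was 1.68 (adjusted p = 0.000703 in edgeR), and without control replicate 1 it was 0.76. Scx lies within Bop1 on the opposite strand but shares 0 exon bases with it. Bop1 was counted between 993 and 1011 times in controls and between 980 and 1034 times in Ni libraries.

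Tnmd (ENSMUSG00000031250), on chromosome X from 133850980 to 133865577, encodes tenomodulin. Its levels were 2.95, 2.08 and 4.20 CPM in controls and 4.07, 2.30 and 3.09 CPM in Ni libraries. The ranges of the groups nearly coincided, with a log2 fold change of 0.04 and a standard error of 0.33 (adjusted p = 0.974 in edgeR). An error of this size leaves room for a difference in either direction.

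Mkx (ENSMUSG00000061013) encodes mohawk. It was counted 15, 25 and 25 times in controls and 11, 18 and 28 times in Ni libraries. In CPM the controls were at 0.820, 1.58 and 1.50 and the Ni libraries 0.597, 1.04 and 1.55, so the groups overlapped. The log2 fold change of -0.28 was smaller than the standard error of 0.45 (adjusted p = 0.822 in edgeR). The deposited annotation gives Mkx a longer span than GENCODE M21, where another gene on the same strand overlaps 4.91% of its exon bases, so its counts may include reads of that gene. The other 9 genes have the same coordinates in both annotations.

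**Figure D2:**
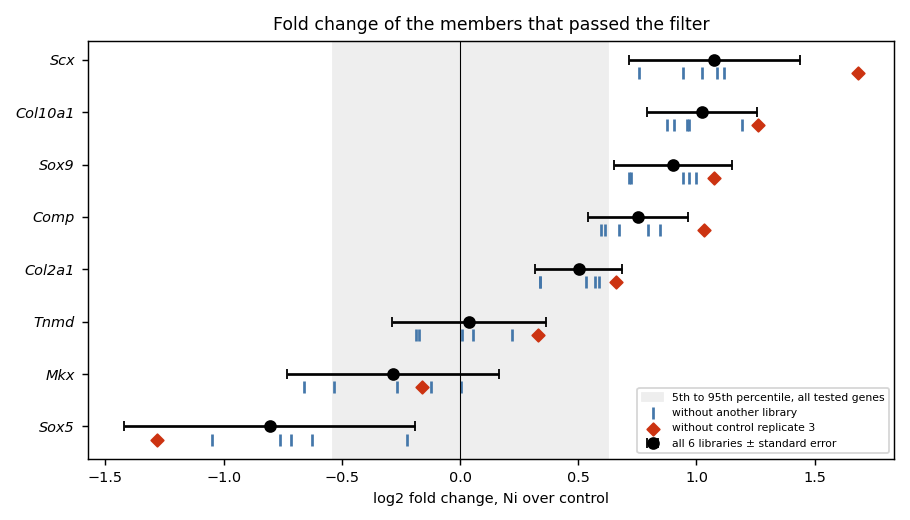
Log2 fold change, Ni over control, of the 8 tested genes. Black points give edgeR's estimate from all 6 libraries, and bars a standard error derived from its test. Blue ticks give the estimates with a single library left out, and red diamonds those without control replicate 3. The grey band is the range from the 5th to the 95th percentile of all 14624 tested genes. Scx, Col10a1, Sox9 and Comp lie above the band, and Sox5 lies below it with the widest error.

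To set genes of one tissue against each other, the log2 ratio of paired levels was taken within each library for 3 pairs chosen after the values were seen. Scx over Tnmd was -0.51, 0.63 and 0.68 in controls and 1.15, 1.79 and 1.42 in Ni libraries, so every Ni library was higher. The difference of the means was 1.19 (exact two-sided permutation test, p = 0.1, adjusted p = 0.3 over the 3 pairs). Scx alone already separated the groups, and 0.1 is the smallest p that this test can give. The adjustment covers only the 3 chosen pairs, so these p-values cannot decide whether a ratio differs. Sox9 over Sox5 was 0.31, 0.24 and 3.50 in controls and 3.37, 2.08 and 2.50 in Ni libraries, with control replicate 3 above all Ni libraries (exact permutation p = 0.4, adjusted p = 0.4). Col10a1 over Col2a1 overlapped as well, with means of -3.51 in controls and -2.99 in Ni libraries (exact permutation p = 0.3, adjusted p = 0.4).

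Compared per length, in FPKM over all 6 libraries, the genes fell in the order Comp, Col2a1, Scx, Col10a1, Tnmd, Sox9, Mkx, Sox5, Acan and Sox6. Comp ranged from 28.9 to 75.4 FPKM and exceeded 95.9% of protein-coding genes by its mean. Col2a1 ranged from 5.63 to 12.8 FPKM, apart from both neighbours in the order. Scx, Col10a1 and Tnmd, with means of 3.07, 2.93 and 2.29 FPKM, overlapped, and Scx was above Col10a1 in 4 of 6 libraries. Sox9 had a mean of 1.34 FPKM, which overlapped with Tnmd but not with Mkx at 0.298 FPKM. Sox5, at 0.112 FPKM, overlapped with Mkx and with Acan at 0.0137 FPKM, while Sox6 was lowest at 0.00820 FPKM.

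Lists for the bone and fat fates give these levels a scale. The median gene of the 10 had a mean of 1.81 FPKM, against 21.2 FPKM for 12 osteoblast genes and 7.83 FPKM for 10 adipocyte genes; no test was made between lists. The osteoblast genes ran up to Spp1, osteopontin, at 4606 FPKM, and Sost, a gene of osteocytes, was at 0 in all libraries. The adipocyte genes were uneven. Lep, Plin1, Slc2a4 and Cfd were at 0.011, 0.22, 0.30 and 0.83 FPKM. Adipoq, Lpl, Cd36 and Cebpa were at 26.4, 53.6, 98.6 and 114.5 FPKM. Which cells of these cultures gave the adipocyte counts was not tested, so the list median does not measure a fat fate. All 11 osteoblast genes tested were higher in Ni at an unadjusted p under 0.05, against 7.59% of all tested genes. Their median log2 fold change was 1.07, and 0 passed the adjusted p in edgeR with all libraries. Without control replicate 3, 9 of them passed, all higher, against 8.69% higher over all genes. DESeq2 passed 6, all higher, against 1.46% higher over all genes. The transcription factor genes Runx2, Dlx5 and Sp7 had 0.54, 0.54 and 0.88, and the phosphatase gene Alpl had 1.07. The matrix genes Spp1, Dmp1, Col1a1 and Ibsp had 0.63, 0.98, 1.13 and 1.70, the osteocalcin genes Bglap and Bglap2, which are near-identical copies, 1.68 and 1.69, and the phosphate regulator Phex 1.47. Without control replicate 3, Spp1 was at 1.06 and Bglap2 at 2.78. Their lowest values with a single library left out were 0.44 and 1.28. The 8 tested adipocyte genes had a median log2 fold change of 0.00, with 4 positive and 4 negative. Lpl and Cd36, at -0.49 and -0.54, were the 2 that were lower at an unadjusted p under 0.05, and 0 were higher. Over all tested genes 5.83% were lower. Without control replicate 3, 2 adipocyte genes were higher and 2 lower at an adjusted p under 0.05 in edgeR, against 8.69% and 6.49% of all genes. Cebpa, the most abundant, was at 0.13. Cd36 was at -0.35 without control replicate 1, and Cebpa at 0.07 without Ni replicate 2.

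**Figure D3:**
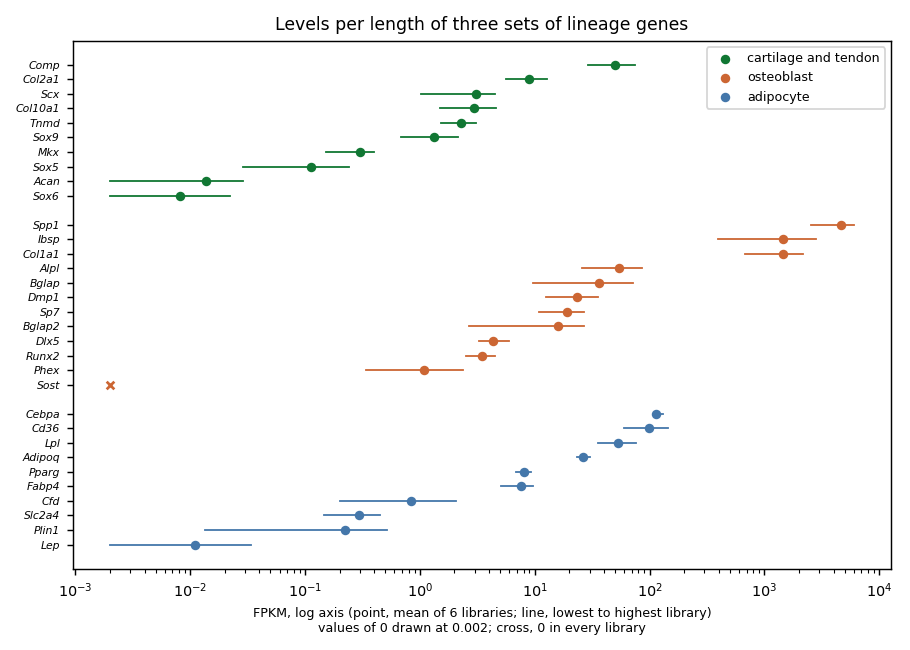
FPKM, on a log axis, of the 10 cartilage and tendon genes, 12 osteoblast genes and 10 adipocyte genes. Points are means of 6 libraries and lines run from the lowest to the highest library. Comp sits between the osteoblast genes Bglap and Alpl, Acan and Sox6 lie near the bottom with some libraries at 0, and Sost is at 0 throughout.

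Among 33 other cartilage genes, 7 of the 17 tested were higher in Ni at an unadjusted p under 0.05 and 0 were lower. Over all tested genes 7.59% were higher and 5.83% lower. The median log2 fold change of the 17 was 0.52, against -0.01 for all tested genes. In edgeR, 0 passed the adjusted p with all libraries. Without control replicate 3, 8 passed, all of them higher, against 8.69% higher over all genes. DESeq2 passed 5, all higher, against 1.46% higher over all genes. The largest differences in this list were in Panx3, a channel protein of hypertrophic chondrocytes and osteoblasts, at 2.41 (standard error 0.54), and Col11a2, a chain of type XI collagen, at 1.94 (standard error 0.39). Hapln1, which links aggrecan to hyaluronan, was at 1.89 (standard error 0.42), although it had no more than 66 counts in any library. Pth1r, the parathyroid hormone receptor of chondrocytes and osteoblasts, was at 1.26 (standard error 0.22, adjusted p = 0.208 in edgeR). Fgfr3, a growth factor receptor that restrains chondrocyte proliferation, was at 0.87, Col11a1, another chain of type XI collagen, at 0.72, and Mef2c, a transcription factor of hypertrophy, at 0.46. Mmp13, a collagenase of hypertrophic chondrocytes and osteoblasts, was the most abundant at 512.8 FPKM, with a log2 fold change of 0.51 (unadjusted p = 0.0513 in edgeR). For Mmp13 it was 0.83 without control replicate 3 (adjusted p = 0.000592 in edgeR) and 0.32 without control replicate 2.

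The remaining 16 cartilage genes were too low to test. Col9a1, a chain of type IX collagen, Cnmd, which encodes chondromodulin, Epyc, Clec3a and Pthlh were at 0 in all 6 libraries. The other 11 had at most 17 counts in any library. Matn1, a cartilage matrix protein, was counted up to 9 times, and Ucma, a secreted protein of chondrocytes, was counted in 1 library.

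Of 23 other tendon and ligament genes, 21 were tested. At an unadjusted p under 0.05, 11 of them were higher in Ni and 1 lower, against 7.59% and 5.83% of all tested genes. The median log2 fold change of the 21 was 0.41. In edgeR 0 passed the adjusted p with all libraries. Without control replicate 3, 11 passed, all of them higher, against 8.69% higher over all genes. DESeq2 passed 6, all higher, against 1.46% higher over all genes. Most genes of this list are matrix genes of connective tissue at large. The small proteoglycans Fmod, Lum, Dcn and Bgn, which bind collagen fibrils, had log2 fold changes of 1.04, 0.95, 0.80 and 0.41. The fibrillar collagen chains Col5a1, Col5a2 and Col3a1 had 0.90, 0.90 and 0.46, and the fibril-associated Col12a1 had 0.66. Tenascin C (Tnc), a matrix glycoprotein of tendon, had 0.78, and the growth factor gene Tgfb3 had 0.39. Thbs4, a matrix protein related to Comp, had 1, 1 and 17 counts in controls and 40, 10 and 38 in Ni libraries, with a log2 fold change of 2.09 (standard error 0.91). Without control replicate 3, Thbs4 was at 4.64 (adjusted p = 0.00458 in edgeR), Col3a1 at 0.74 and Col12a1 at 0.99. Leaving out control replicate 1 gave 1.55 for Thbs4 and 0.34 for Col3a1, and leaving out control replicate 2 gave 0.51 for Col12a1. Col14a1, another fibril-associated collagen, was the one lower gene, at -0.92 (standard error 0.37), and at -1.53 without Ni replicate 2. Kera, a corneal and tendon proteoglycan, was at 0 in every library.

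**Figure D4:**
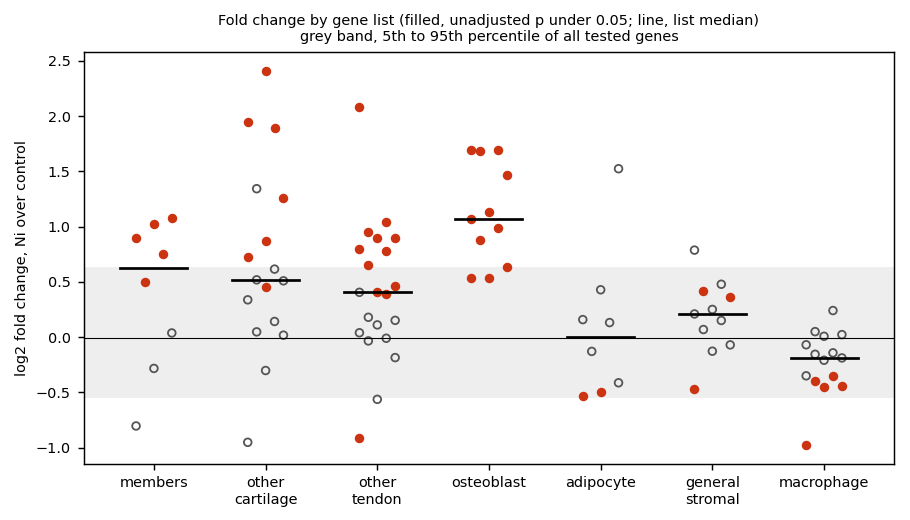
Log2 fold change, Ni over control, of every tested gene in 7 lists. Filled points have an unadjusted p under 0.05 in edgeR, bars mark list medians and the grey band runs from the 5th to the 95th percentile of all tested genes. The cartilage and tendon genes and both related lists lie mostly above 0, with medians of 0.63, 0.52 and 0.41, below the osteoblast median of 1.07, and the macrophage median is -0.19.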

How the data were processed

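Fragmented-mRNA libraries of 3 control and 3 Ni cultures were sequenced. The authors deposited raw counts per gene for 54532 genes, and FPKM values that equal the counts over gene length and 1 factor per library. The build is GRCm38 per the labels; aligner, counter, strand setting and filters are not given in the sources used here, and the paper names no count model. Genes were kept by filterByExpr (14624), scaled by TMM and compared with the robust quasi-likelihood test of edgeR 4.0.16 (prior count 0.125) in R 4.3.3, with Benjamini-Hochberg adjustment over all tested genes. Standard errors were derived as the size of the log2 coefficient without prior count over the square root of the test's F statistic. DESeq2 1.42.0 and limma 3.58.1 on log2(FPKM + 1) or log2(FPKM + 0.1) were alternatives. The scripts were checked on simulated counts. Replicates are independent per the series' design, and libraries of a group differed beyond counting noise (chi-square over its degrees of freedom, 4.37 to 43.6). A count of 0 is given a limit of 3 counts. Exon overlaps came from GENCODE M21.

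The members and gene lists were chosen with earlier results of these data known. All 10 members are named whatever their values. Of the other lists, genes at an unadjusted p under 0.05 and the 3 with the highest mean FPKM are named. Sox5os1, Nt5dc1, Bop1 and genes at 0 are named as overlaps or for detection. Matn1, Ucma, Sost, Lep, Plin1, Slc2a4, Cfd and Adipoq were chosen after their values were seen.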

Additional observations from a re-analysis of the deposited data

How the results depend on the processing

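Of the cartilage and tendon genes, 5 were higher at an unadjusted p below 0.05 under every alternative that kept all libraries, and 4 or 5 with one library left out; 0 were lower, except 1 (Sox5) once control replicate 3 was left out and 1 with no filter on low counts. At an adjusted p under 0.05, the count of 0 for the cartilage and tendon genes became 5 with no filter, 1 under the replicate block and 2 by DESeq2, and it ranged from 0 to 6 with each library left out. For the other cartilage genes it became 8, 3 and 5 in the same order, with a range from 0 to 8, and for the other tendon genes 11, 4 and 6, with a range from 0 to 11. Over all genes, 1027 of 25876 passed with no filter, 315 of 14624 under the replicate block and 2283 of 15044 without control replicate 3. The highest of each range was without control replicate 3; the cause was not tested. With each library left out, unadjusted calls ranged from 0 to 1 lower for the cartilage and tendon genes, from 6 to 12 higher and 0 to 1 lower for the other cartilage genes, and from 6 to 12 higher and 0 to 3 lower for the other tendon genes.

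Tnmd turned to -0.18 without control replicate 2 and -0.19 without Ni replicate 1, within a range from -0.19 to 0.33, and Mkx turned to 0.002 without Ni replicate 1, within a range from -0.66 to 0.002. DESeq2's size factors, at least 10 counts in every library and limma on either FPKM scale changed no call at an adjusted p. The order of levels was the same from counts per length. Deviations from the group means correlated by 0.0104, 0.256 and 0.138 between libraries of the same replicate number. Whether cultures of the same number were paired was not tested and cannot be told from these values. Under the replicate block, Col10a1 was at 1.03 (adjusted p = 0.0285 in edgeR). Acan and Sox6 entered only the fit without a filter and DESeq2, and depth limits both.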
